A study of Mus musculus with 2 samples.

Results

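The retinoid genes described here are 9 of the 27998 gene IDs that were counted in liver nonparenchymal cells of mice. They are Cyp26b1, Dhrs3, Rdh10, Aldh1a1, Rbp4, Rara, Rarb, Rarg and Rxra. The symbols were listed with earlier results of these data in view, including the Cyp26b1 levels of endothelial cells, and each symbol matched 1 row of the gene table. The yap1 library came from C57BL/6 mice with floxed yap1 alleles and a Lyz2-driven Cre, given carbon tetrachloride (CCl4) 4 times. The WT library came from wild-type C57BL/6 mice given the same 4 doses, and no uninjured liver is compared here. Whether the extent of injury was equal in both groups was not tested. Each library is 1 sample from 3 mice per the labels, which give no age. Lyz2 drives Cre in myeloid cells, and endothelial cells are not its usual target. With 1 library per genotype there is no replicate and no test, and every interval below is a 95% interval that covers counting error only.

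Retinol reaches tissues bound to the plasma carrier RBP4, which hepatocytes secrete. Cells oxidize retinol to retinal and retinal to retinoic acid, the hormone that binds RAR and RXR receptors on DNA. CYP26 enzymes hydroxylate and clear retinoic acid, and DHRS3 reduces retinal back to retinol. The genes of both of these enzymes, like Rarb, are textbook targets that retinoic acid itself induces. In the liver, stellate cells store most of the body's retinoid and lose it when they are activated during fibrosis.

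The yap1 library held 4731 barcodes and 34234353 unique molecular identifiers (UMIs, 1 per captured RNA molecule), and the WT library 5269 barcodes and 30386545 UMIs. After filters on depth, genes and mitochondrial share, 4149 yap1 and 4847 WT barcodes remained, with median depths of 5323 and 4115 UMIs. A barcode was given a cell class when at least 3 markers of that class, and of no other, were detected. That placed 2708 yap1 and 3434 WT barcodes, left 1252 and 1168 that passed several gates, and left 189 and 245 with none. In both libraries 12 classes reached 50 cells, namely 9 single classes and 3 combinations of gates. One of these combinations, monocyte with T cell (92 yap1 and 72 WT barcodes), joins a myeloid and a lymphoid gate. No marker of the 9 single classes was at 0 in either library. Stellate and fibroblast cells, the store of retinoid, passed their gate and no other in 6 yap1 and 18 WT barcodes and were not compared. Barcodes that passed it together with another gate are not in these counts. Yap1 itself had 100 UMIs in yap1 and 142 in WT barcodes. It stood at 64.4 CPM in yap1 and 64.8 CPM in WT endothelial-like cells, where CPM is a gene's UMIs scaled by all UMIs of the class, and had 0 UMIs in Kupffer cell-like cells of both libraries. Of the Yap1 UMIs, 61 in yap1 and 91 in WT lay in endothelial-like cells. WT monocyte-like cells held 0, and WT monocyte-derived macrophage-like and neutrophil-like cells 1 each. Yap1 was thus hardly detected in these myeloid classes even in WT. No source used here says whether the reads fall in the deleted exons. For both reasons these values do not check the genotype. The libraries shared 5 barcode sequences, and no doublet caller was run.

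The promoter windows of the 3 members that stood higher in yap1 than in WT endothelial-like cells are printed first, to show whether letters of a known receptor element lie near their start. Each runs from 250 bases before to 50 bases after a RefSeq start site on build GRCm38.p6, 5′ to 3′ on the gene's strand. In the annotation of that build Cyp26b1 spans chr6:84571414-84593908, Dhrs3 chr4:144892827-144928209 and Rarb chr14:16430839-16819156. The Cyp26b1 window is chr6:84593761-84594060 (minus strand), the Dhrs3 window chr4:144892577-144892876 (plus strand, the first of 3 listed for the gene) and the Rarb window chr14:16575427-16575726 (minus strand). Capitals mark TATAAA in Cyp26b1 and a direct repeat of a receptor hexamer in Rarb, and the Dhrs3 window held neither.
Cyp26b1: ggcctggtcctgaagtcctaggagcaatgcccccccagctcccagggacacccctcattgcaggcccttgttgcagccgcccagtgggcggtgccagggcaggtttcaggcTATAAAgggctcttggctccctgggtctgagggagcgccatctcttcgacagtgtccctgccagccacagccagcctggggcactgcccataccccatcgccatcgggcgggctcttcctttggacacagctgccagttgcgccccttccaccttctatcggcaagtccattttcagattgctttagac
Dhrs3: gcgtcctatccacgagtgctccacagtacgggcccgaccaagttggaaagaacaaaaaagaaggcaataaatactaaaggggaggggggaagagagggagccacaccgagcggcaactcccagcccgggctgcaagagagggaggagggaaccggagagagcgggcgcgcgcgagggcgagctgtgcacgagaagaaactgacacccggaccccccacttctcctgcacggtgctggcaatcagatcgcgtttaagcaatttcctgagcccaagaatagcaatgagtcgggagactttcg
Rarb: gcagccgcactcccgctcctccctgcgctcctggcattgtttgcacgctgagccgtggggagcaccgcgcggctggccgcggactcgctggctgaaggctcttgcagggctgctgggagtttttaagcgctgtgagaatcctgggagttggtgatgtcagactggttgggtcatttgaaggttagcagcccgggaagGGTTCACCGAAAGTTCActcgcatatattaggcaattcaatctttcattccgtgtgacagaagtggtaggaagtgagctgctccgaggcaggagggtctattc
The hexamers searched were AGGTCA with its variant AGTTCA, and GGGTCA with its variant GGTTCA, and the repeat was any 2 of them in the same direction with 5 bases between, on both strands. The Rarb repeat, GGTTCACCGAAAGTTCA, lies 53 to 37 bases before the start site. It is the textbook retinoic acid response element of this gene. Such a repeat occurred in 32 of 32851 RefSeq windows (0.0974%), while a single hexamer occurred in 43.7% and TATAAA on the gene's strand in 8.32%. Windows were found for 8 of the 9 members, Rdh10 being the exception. Of their 17 windows 7 held a hexamer and 1 held the repeat. The Cyp26b1 window and the 3 Dhrs3 windows held no hexamer. A match is a description of these letters and not a binding site.

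Cyp26b1, the cytochrome P450 that clears retinoic acid, was an endothelial transcript in both libraries and was several times more abundant in yap1. Endothelial-like cells held 961 Cyp26b1 UMIs in yap1 and 265 in WT. These are levels of 1015 CPM (952 to 1081) in yap1 and 189 CPM (167 to 213) in WT, a ratio of 5.38 (4.69 to 6.18). In such sums more expressing cells and more RNA per cell cannot be told apart, and shares of cells follow below. Of the UMIs in kept barcodes, 85.3% in yap1 and 85.2% in WT lay in the endothelial gate alone, and 13.1% and 13.2% in barcodes that passed it together with another gate. The 11 other classes held between 0 and 4 UMIs each in yap1 and between 0 and 1 in WT. B cell-like cells, which should lack the gene, held 2 UMIs in 866 yap1 cells and 0 in 1246 WT cells at median depths of 4392.5 and 3640 UMIs. In both libraries endothelial-like cells stood first, and the intervals of the classes next in order overlapped.

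**Figure D1:**
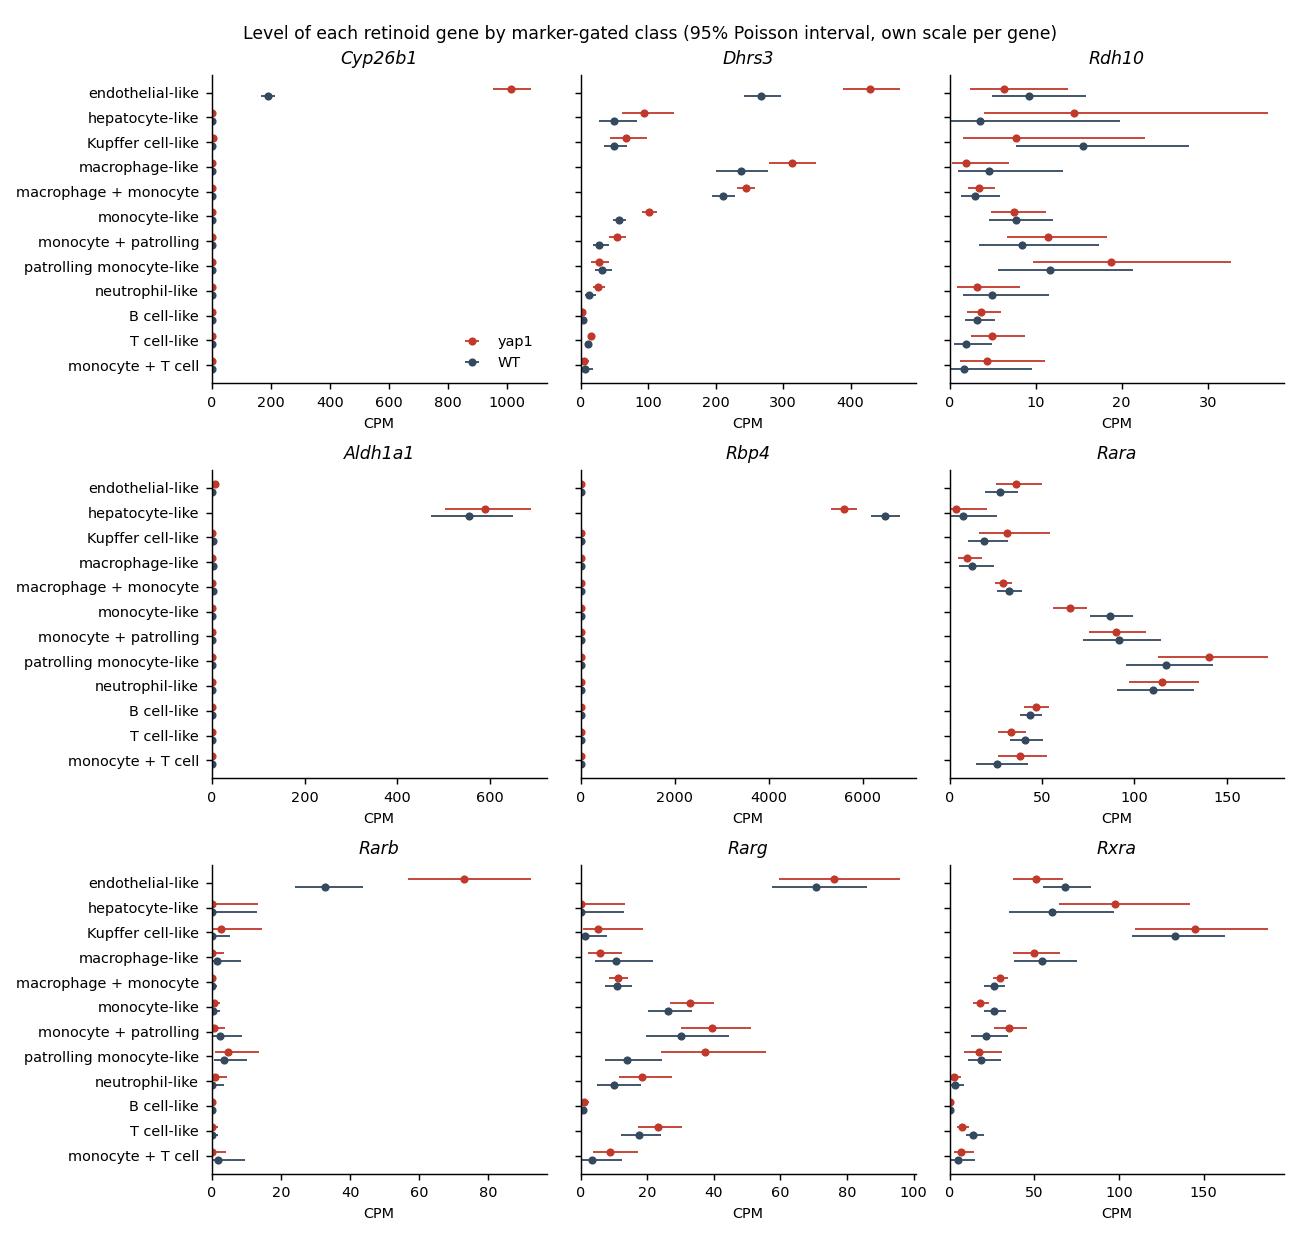
Level of each of the 9 retinoid genes in CPM (x axis, own scale per gene) in 12 marker-gated classes, yap1 above WT, with 95% Poisson intervals. Cyp26b1 and Rarb peak in endothelial-like cells, Rbp4 and Aldh1a1 in hepatocyte-like cells, and Dhrs3 spreads over endothelial-like and macrophage-like cells.

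A Cyp26b1 UMI was found in 174 of 326 yap1 endothelial-like cells (53.4%, 47.8 to 58.9) and in 79 of 445 WT endothelial-like cells (17.8%, 14.3 to 21.6). The share in B cell-like cells was 0.231% in yap1 and 0% in WT, where 0 cells allow a share of up to 0.241%. Median depths of the endothelial-like cells were 2094.5 UMIs in yap1 and 1978 in WT. With each cell thinned to 1000 UMIs the shares were 42.4% of 255 yap1 cells (36.2 to 48.7) and 9.65% of 342 WT cells (6.74 to 13.3), and 71 yap1 and 103 WT cells were too shallow to be kept. At 500 UMIs they were 30.4% in yap1 and 6.07% in WT. The yap1 share was the higher in each of 4 depth ranges, at 35.2% against 7.77% in WT below 1000 UMIs and 72.0% against 37.8% from 4000 UMIs. Cells with a Cyp26b1 UMI were deeper than those without, with medians of 2885.5 against 1463 UMIs in yap1 and 4519 against 1681.5 in WT.

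The transcript was unevenly spread. The highest cell held 35 UMIs in yap1 and 37 in WT, and cells with at least 5 UMIs numbered 59 in yap1 and 15 in WT. The 5 highest cells carried 16.03% of the UMIs in yap1 and 30.9% in WT, and 26 yap1 and 12 WT cells were enough to hold 50% of them. Leaving out those 5 cells in each library gave a ratio of 6.55. Among 2140 genes with at least 200 UMIs in endothelial-like cells of both libraries together, the Cyp26b1 ratio ranked 5, behind 4 hemoglobin genes. Mitochondrial and ribosomal protein genes came after it, such as mt-Nd4l with a ratio of 2.10, Rps29 with 1.95, Rpl35 with 1.93 and mt-Co1 with 1.70, and Dhrs3 with 1.60 ranked 20. The median mitochondrial share of these cells was 9.92% in yap1 and 8.73% in WT, and its part in the result was not tested.

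**Figure D2:**
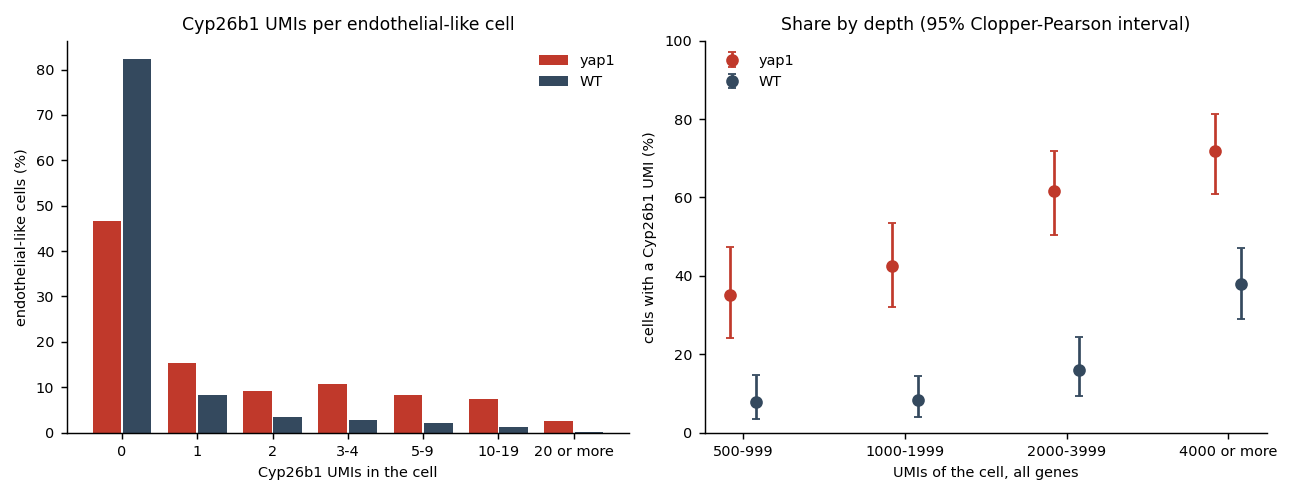
Left, percent of endothelial-like cells (y axis) by number of Cyp26b1 UMIs in the cell (x axis), yap1 left of WT. Right, percent of cells with a Cyp26b1 UMI (y axis) by the cell's depth in UMIs (x axis), with 95% Clopper-Pearson intervals. Cells without a UMI make up 46.6% of yap1 and 82.2% of WT cells, and the yap1 share is higher at each depth.

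The gate rested on 15 endothelial markers, all detected in both libraries, with a median of 41 marker UMIs per cell in yap1 and 42 in WT and a summed level of 24808 CPM in yap1 and 23062 CPM in WT. Only 4 yap1 and 10 WT cells sat at the edge of the gate with 3 markers, and none of them held Cyp26b1. Marker lists of the other 18 classes had a median of 0 UMIs per cell in both libraries. The gate required endothelial markers and left out cells with 3 or more markers of another list. These marker values therefore follow in part from the gate. Hemoglobin differed between the libraries, with 6118 UMIs in yap1 and 249 in WT, of which 98.9% and 81.9% lay in only 5 cells of each. Among endothelial-like cells with no hemoglobin UMI, Cyp26b1 was found in 53.0% of 264 yap1 cells and 17.4% of 396 WT cells. The 7 monocyte markers stood at 81.3 CPM in yap1 and 222 CPM in WT, mostly Plac8, with 2 of them at 0 in each library, and their part in the result was not tested. Lymphatic marker UMIs also differed, at 287 in yap1 and 42 in WT over 5 genes, but they lay in only 8 yap1 and 7 WT cells. Ccl21a gave 178 of those in yap1, 177 of them in 1 cell, and none in WT. Mmrn1 gave 77 in yap1, all in 1 cell, and 32 in WT, 31 of them in 1 cell. Pdpn was at 0 in yap1. The difference thus rests on a few cells. In the cells with no lymphatic UMI Cyp26b1 stood at 1020 CPM (955 to 1087) in 318 yap1 cells and 193 CPM (170 to 218) in 438 WT cells.

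Along the sinusoid, Cyp26b1 was higher in yap1 at both ends. Endothelial-like cells with more pericentral than periportal markers had 1154 CPM in 143 yap1 cells and 232 CPM in 194 WT cells. Cells with more periportal markers had 918 CPM in 128 yap1 cells and 158 CPM in 155 WT cells. The pericentral level lay above the periportal level in each library. The intervals were 1050 to 1264 against 830 to 1012 CPM in yap1 and 197 to 273 against 127 to 195 CPM in WT. The shares of cells with a Cyp26b1 UMI were alike, at 53.1% pericentral and 53.9% periportal in yap1, and 19.6% and 18.1% in WT. The highest WT cell held 37 UMIs, and the part of single cells in these gaps was not tested. Cells with at least 2 markers of larger vessels had 1239 CPM in 75 yap1 cells and 228 CPM in 101 WT cells, and the remaining cells 843 CPM in yap1 and 160 CPM in WT. The cells with these markers were also deeper. Their median depth was 4886 against 1547 UMIs in yap1 and 5276 against 1495.5 in WT. The part of depth in this gap was not tested. The 2 cells with at least 2 lymphatic markers, 1 in each library, held no Cyp26b1.

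**Figure D3:**
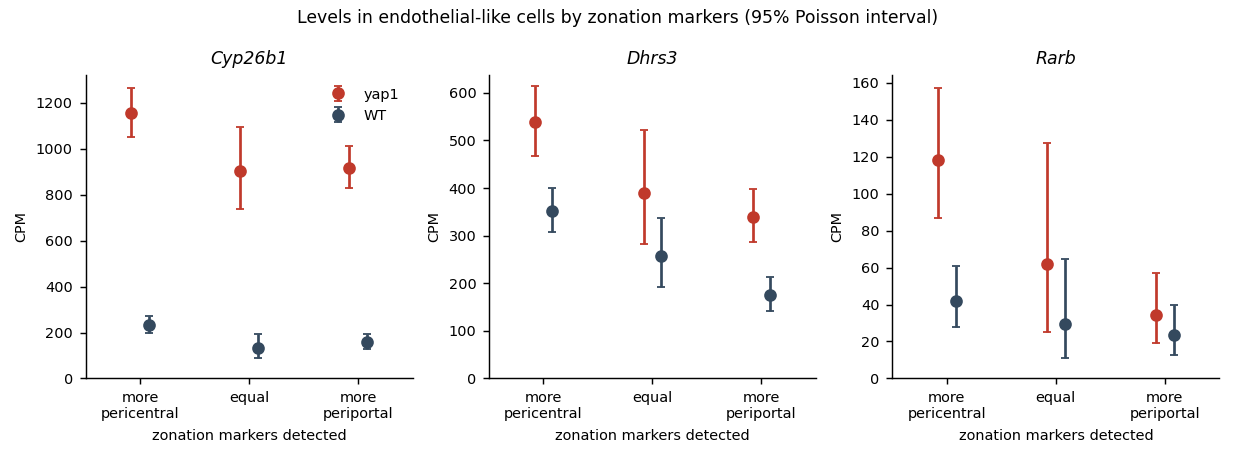
Level in CPM (y axis) of Cyp26b1, Dhrs3 and Rarb in endothelial-like cells grouped by zonation markers (x axis), yap1 left of WT, with 95% Poisson intervals. Each gene is higher in yap1 than in WT in each group, although the intervals overlap for Rarb in the equal and periportal groups and for Dhrs3 in the equal group.

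Dhrs3, the short-chain dehydrogenase that returns retinal to retinol, was shared by endothelial and macrophage classes and leaned to the yap1 library in most classes compared. Of its UMIs in kept barcodes, 62.8% in yap1 and 53.9% in WT lay in barcodes of several gates other than endothelial. Only the combinations with at least 50 cells in both libraries are compared here. The endothelial gate alone held 10.3% in yap1 and 16.5% in WT. Endothelial-like cells held 406 UMIs in yap1 and 376 in WT, or 429 CPM (388 to 473) in yap1 and 268 CPM (241 to 296) in WT, a ratio of 1.60 (1.39 to 1.85). The level was 538 CPM in yap1 and 352 CPM in WT among cells with more pericentral markers, and 340 CPM in yap1 and 175 CPM in WT among those with more periportal markers. The UMIs were spread over 164 yap1 and 165 WT cells, and the 5 highest cells carried 13.3% in yap1 and 17.0% in WT.

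Dhrs3 was higher within endothelial-like cells that carried Cyp26b1. It stood at 525 CPM in carriers and 246 CPM in the other cells of the yap1 library, a ratio of 2.14 (1.67 to 2.76). In WT it stood at 416 CPM in carriers and 208 CPM in the others, a ratio of 2.00 (1.62 to 2.46). Both transcripts were found together in 113 of 326 yap1 cells (34.7%, 29.5 to 40.1) and in 55 of 445 WT cells (12.4%, 9.45 to 15.8). Carriers were the deeper cells, and the part of depth in these joint shares was not tested. Other genes were also higher in carriers. Rarg in yap1 had a ratio of 1.99 (1.11 to 3.79). In WT the pathway genes Nrip1 and Tgm2 had ratios of 2.00 (1.35 to 2.94) and 1.70 (1.37 to 2.11). The interval of each of these included 1 in the other library. For Rara, Rxra, Rbp4, Rdh10 and Aldh1a1 the interval included 1 in both libraries.

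Among the other classes compared Dhrs3 was most abundant in monocyte-derived macrophage-like cells, which take up debris in the injured liver. They held 327 UMIs in yap1 and 157 in WT, or 313 CPM in yap1 and 237 CPM in WT, a ratio of 1.32 (1.09 to 1.61). Cells passing both the macrophage and the monocyte gate held most Dhrs3 UMIs of any class, 1418 in yap1 and 569 in WT, at 245 CPM in yap1 and 211 CPM in WT with a ratio of 1.16 (1.05 to 1.28). Monocyte-like cells had 101 CPM in yap1 and 57.0 CPM in WT, from 310 and 141 UMIs, a ratio of 1.77 (1.45 to 2.18). In yap1 the intervals of the 4 highest classes, endothelial, macrophage, macrophage with monocyte, and monocyte, did not overlap between neighbours, while in WT the first 3 overlapped in turn. The mesenchymal barcodes, too few to be compared, held 1 Dhrs3 UMI in yap1 and 23 in WT, or 47.0 CPM (1.19 to 262) in yap1 and 266 CPM (169 to 400) in WT.

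Lower levels had the same direction in neutrophil-like cells, with 32 UMIs in yap1 and 13 in WT and a ratio of 1.98 (1.01 to 4.12), and in cells passing the monocyte and patrolling monocyte gates, with 80 UMIs in yap1 and 23 in WT and a ratio of 1.94 (1.21 to 3.23). With each cell thinned to 1000 UMIs the ratio was 0.970 in monocyte-like, 0.985 in neutrophil-like and 0.848 in monocyte and patrolling monocyte cells. These directions thus did not hold at that step, which left a Dhrs3 UMI in only 18, 8 and 5 yap1 cells of these classes. The ratio stayed above 1 in 11 of 12 alternatives for monocyte-like and for neutrophil-like cells, and in 8 of 9 for the combination. Dhrs3 was near background in B cell-like cells, at 2.42 CPM in yap1 and 2.82 CPM in WT. Over the 11 classes where it could be compared, the ratio was above 1 in 9, and its interval lay above 1 in 6 and below 1 in none.

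Rdh10, which oxidizes retinol to retinal, was sparse everywhere. It reached 187 UMIs in the whole yap1 library and 140 in the WT library. Its highest level was 18.7 CPM (9.67 to 32.7) in yap1 patrolling monocyte-like cells, against 11.6 CPM (5.57 to 21.4) in WT, and the 4 highest classes overlapped in each library. None of its 5 ratios had an interval that left out 1. In endothelial-like cells it had 6 UMIs in yap1 and 13 in WT, too few for a ratio.

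Aldh1a1, which oxidizes retinal to retinoic acid, and Rbp4, the retinol carrier, were hepatocyte transcripts. Hepatocytes are mostly removed with the pellet in this preparation, and hepatocyte-like cells numbered 120 in yap1 and 136 in WT. Aldh1a1 held 163 UMIs in yap1 and 156 in WT, or 590.0 CPM (503 to 688) in yap1 and 556 CPM (472 to 650) in WT, a ratio of 1.06 (0.848 to 1.33). The 18 WT mesenchymal barcodes held 20 further Aldh1a1 UMIs, and the 6 yap1 mesenchymal barcodes held none. In endothelial-like cells it had 6 UMIs in yap1 and 1 in WT, of which 4 in yap1 and 0 in WT lay in cells that carried Cyp26b1. Of the 50-base words at the end of Aldh1a1 transcripts 3.28% also occur in its paralog Aldh1a7.

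Rbp4 held 1546 UMIs in yap1 and 1818 in WT hepatocyte-like cells, or 5596 CPM (5321 to 5882) in yap1 and 6474 CPM (6180 to 6778) in WT, a ratio of 0.864 (0.807 to 0.926). The highest WT cell held 252 UMIs and the highest yap1 cell 71. Under a stricter cell filter the ratio was 1.005 and with thinned cells 1.007, so no direction holds. All other classes compared lay at or under 6.34 CPM in yap1 and 11.3 CPM in WT, and barcodes that passed no gate stood at 46.4 CPM in yap1 and 30.1 CPM in WT. In B cell-like cells Rbp4 was at 5.08 CPM in yap1 and 6.03 CPM in WT, and the classes next to hepatocytes in order overlapped that level.

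Rarb, the receptor gene with the response element in its promoter, followed the endothelial pattern. Endothelial-like cells held 69 UMIs in 53 cells in yap1 and 46 UMIs in 33 cells in WT, or 72.9 CPM (56.7 to 92.2) in yap1 and 32.8 CPM (24.0 to 43.7) in WT, a ratio of 2.22 (1.51 to 3.30). The other classes compared held at most 3 UMIs each in either library. Migratory dendritic cell-like barcodes, too few to be compared, held 5 UMIs in 18 yap1 and 2 UMIs in 22 WT barcodes. In yap1 that is 39.6 CPM (12.9 to 92.4), an interval overlapping that of endothelial-like cells, with 4 of the 5 UMIs in 1 cell. The level was 118 CPM in yap1 and 41.8 CPM in WT in cells with more pericentral markers, and 34.4 CPM in yap1 and 23.4 CPM in WT in those with more periportal markers. In WT it was higher in Cyp26b1 carriers, at 56.9 CPM against 23.0 CPM in the other cells, a ratio of 2.48 (1.33 to 4.62). In yap1 carriers it stood at 80.5 CPM against 58.3 CPM, a ratio of 1.38 (0.799 to 2.48). Exons of Rarb overlap Top2b on the opposite strand, and no source used here states whether counting used strand. B cell-like cells held 522 Top2b UMIs in yap1 and 656 in WT, and 0 Rarb UMIs in either.

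Rarg, another retinoic acid receptor, was also highest in endothelial-like cells, with a ratio there whose interval included 1. It stood at 76.1 CPM (59.5 to 95.8) in yap1 and 70.5 CPM (57.3 to 85.9) in WT, a ratio of 1.08 (0.785 to 1.48). Monocyte-like cells had 32.9 CPM in yap1 and 26.3 CPM in WT, and T cell-like cells 23.2 CPM in yap1 and 17.4 CPM in WT. In patrolling monocyte-like cells it had 24 UMIs in yap1 and 12 in WT, or 37.4 CPM in yap1 and 13.9 CPM in WT, a ratio of 2.69 (1.29 to 5.90). Over 12 alternatives that ratio lay between 1.23, with a gate of 2 markers, and 2.74, and its interval included 1 with that gate, with Leiden clusters (1.31), with thinned cells (1.52) and in cells without hemoglobin (2.03). The ratio was above 1 in the 7 classes compared for Rarg, with an interval above 1 in 1 of them. It fell below 1 under some alternatives in endothelial-like cells (lowest 0.938), in monocyte and patrolling monocyte cells (lowest 0.452) and in macrophage and monocyte cells (lowest 0.541).

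Rara, a retinoic acid receptor found widely in leukocytes, was highest in patrolling monocyte-like cells, at 140 CPM (113 to 173) in yap1 and 117 CPM (95.5 to 143) in WT, followed by neutrophil-like cells at 115 CPM in yap1 and 110 CPM in WT, and the intervals of these neighbours overlapped. Monocyte-like cells had 64.9 CPM (56.2 to 74.6) in yap1 and 87.0 CPM (75.7 to 99.4) in WT, a ratio of 0.746 (0.612 to 0.909) that lay between 0.508 and 0.802 over 12 alternatives. The combinations with the monocyte gate had intervals that included 1. Their ratios were 0.982 (0.735 to 1.32) with patrolling monocyte, 0.908 (0.696 to 1.19) with macrophage and 1.47 (0.783 to 2.90) with T cell. The level was 46.7 CPM in yap1 and 43.6 CPM in WT B cell-like cells, and 33.1 CPM in yap1 and 40.7 CPM in WT T cell-like cells. It was 31.1 CPM in yap1 and 18.4 CPM in WT Kupffer cell-like cells, and 9.56 CPM in yap1 and 12.1 CPM in WT monocyte-derived macrophage-like cells. Endothelial-like cells had 34 UMIs in yap1 and 38 in WT and a ratio of 1.33 (0.810 to 2.16). Rxra, the partner receptor of the RARs, was highest in Kupffer cell-like cells, the resident macrophages, at 145 CPM (110 to 188) in yap1 and 133 CPM (107 to 163) in WT. In yap1 the interval of hepatocyte-like cells, at 97.7 CPM (64.4 to 142), overlapped that of Kupffer cell-like cells, while in WT that of the next class, endothelial-like cells, did not. It was lower in yap1 monocyte-like cells, at 17.9 CPM against 26.3 CPM in WT with a ratio of 0.682 (0.468 to 0.992), and in yap1 T cell-like cells, with 16 UMIs against 29 in WT and a ratio of 0.509 (0.258 to 0.968). Over 12 alternatives these ratios lay between 0.364 and 0.993 in monocyte-like cells, the highest with a gate of 5 markers, and between 0.363 and 0.730 in T cell-like cells. The Rxra ratio was above 1 in monocyte and patrolling monocyte cells, at 1.61 (0.926 to 2.92). In macrophage and monocyte cells it was 1.14 (0.861 to 1.53). A lower level was thus not seen in these combinations. Endothelial-like cells had 50.7 CPM of Rxra in yap1 and 68.4 CPM in WT, a ratio of 0.741 (0.513 to 1.06).

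Of the 9 members, 7 had at least 20 UMIs in endothelial-like cells of both libraries together. Beyond 1.5-fold, Cyp26b1, Rarb and Dhrs3 were higher in yap1 and Rbp4, with 6 UMIs in yap1 and 15 in WT, was lower. Of all 8700 genes with that many UMIs, 5.85% were higher and 10.2% lower beyond 1.5-fold. The median log2 ratio of the 7 was 0.41 and that of the 8700 genes was -0.04. The members were listed with these ratios known, so nothing is read from those counts. In the other classes, members beyond 1.5-fold in the higher direction were 1 of 5 in monocyte-like cells (background 7.03%), 2 of 5 in patrolling monocyte-like cells (7.77%), 2 of 5 in monocyte and patrolling monocyte cells (9.17%), 2 of 3 in neutrophil-like cells (24.5%), 2 of 4 in hepatocyte-like cells (19.2%) and 1 of 3 in Kupffer cell-like cells (10.8%). In T cell-like cells 1 of 4 was lower (6.47%), and none passed that fold in either direction in B cell-like (0 of 4, background 10.9%), monocyte-derived macrophage-like (0 of 2, 25.8%), macrophage and monocyte (0 of 5, 13.3%) and monocyte and T cell barcodes (0 of 1, 21.6%). Over all 12 classes 48 ratios could be formed. Their interval lay above 1 in 9, against 7.43% of 85321 ratios of all genes, and below 1 in 4, against 8.29%.

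**Figure D4:**
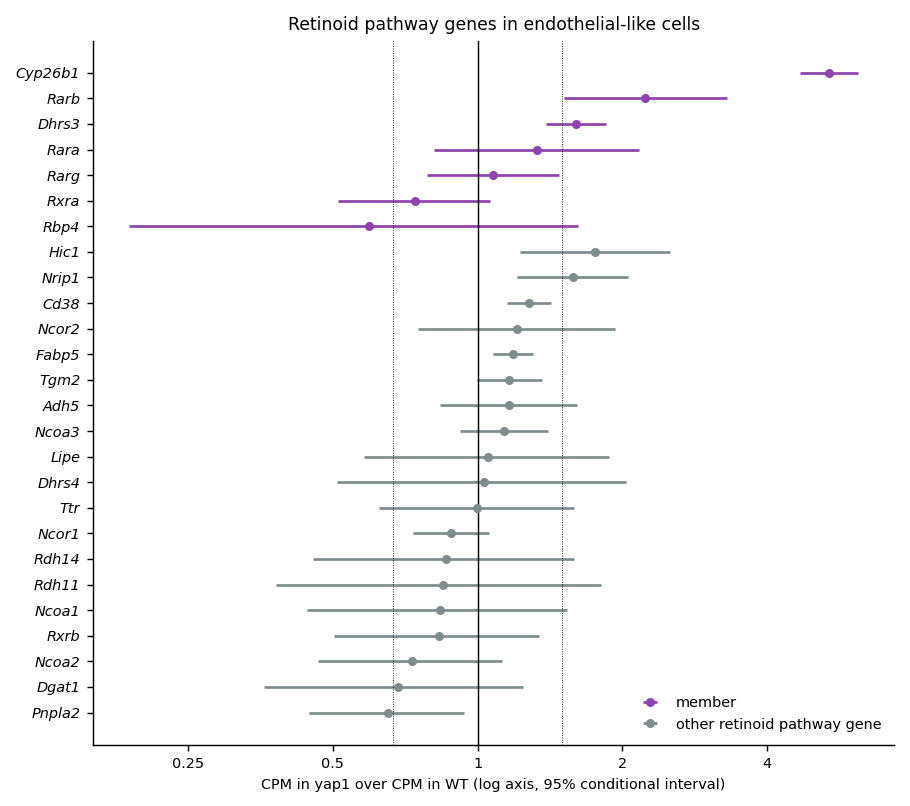
Ratio of CPM in yap1 over CPM in WT (x axis, log scale) in endothelial-like cells for the 7 members and 19 other retinoid pathway genes with at least 20 UMIs, with 95% conditional intervals. Dotted lines mark 1.5-fold in either direction. Cyp26b1 stands at 5.38, and 16 of the 19 other pathway genes lie inside the lines.

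Of 56 other retinoid genes listed, 55 were in the gene table and 19 had at least 20 UMIs in these cells, with a median log2 ratio of 0.04. Beyond 1.5-fold in either direction were 3 of the 19, and 16.1% of all 8700 genes, so this share lies near the background. Higher beyond 1.5-fold were Nrip1, a corepressor of nuclear receptors, and Hic1, a transcriptional repressor described as retinoic acid responsive. Nrip1 had 119 UMIs in yap1 and 112 in WT, a ratio of 1.58 (1.21 to 2.06), and Hic1 71 UMIs in yap1 and 60 in WT, a ratio of 1.75 (1.23 to 2.52). Pnpla2, a lipase that can release retinol from its esters, was lower, with 44 UMIs in yap1 and 100 in WT and a ratio of 0.652 (0.447 to 0.939). Intervals also lay above 1 for Cd38, an ectoenzyme induced by retinoic acid, at 679 CPM in yap1 and 532 CPM in WT with a ratio of 1.28 (1.15 to 1.42). For Fabp5, a fatty acid carrier that also binds retinoic acid, the levels were 827 CPM in yap1 and 699 CPM in WT, a ratio of 1.18 (1.08 to 1.30). Tgm2, another retinoic acid responsive gene, had a ratio of 1.16 (0.995 to 1.36). The background for the interval is 4.69% of genes above 1 and 7.24% below.

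Several genes that define a step of the pathway had few UMIs. Lrat, which stores retinol as esters and marks stellate cells, had 64 UMIs in 12 yap1 barcodes and 29 UMIs in 20 WT barcodes of all classes. Of these UMIs, 1 in yap1 and 10 in WT lay in barcodes that passed the mesenchymal gate alone. Aldh1a2, the main enzyme of retinoic acid synthesis in embryos, had 61 UMIs in yap1 and 23 in WT, with 0 in endothelial-like cells of both libraries. Aldh1a3, a related enzyme, had 7 UMIs in yap1 and 21 in WT. Cyp26a1, the paralog of Cyp26b1 that hepatocytes induce with retinoic acid, had 5 UMIs in yap1 and 6 in WT, and Cyp26c1 had 0 in yap1 and 1 in WT. Stra6, the receptor for RBP4, had none. Other genes were well captured in hepatocyte-like cells. Adh1, an alcohol dehydrogenase that oxidizes retinol, had 322 UMIs in yap1 and 310 in WT, or 1166 CPM in yap1 and 1104 CPM in WT, a ratio of 1.06 (0.901 to 1.24). 

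Over 24 profiles (12 classes in each library) the genes closest to Cyp26b1 among 11098 were Ecm2, an extracellular matrix protein (Pearson r = 0.998), Nts, which encodes neurotensin (0.997), and Wnt9b, a Wnt ligand of central vein endothelium (0.995). The profiles share libraries and depth, and a gene limited to 1 class in both libraries gives such values readily, so r is a description. In endothelial-like cells Wnt9b had 49 UMIs in yap1 and 42 in WT, a ratio of 1.73 (1.12 to 2.68). Ecm2 had 34 UMIs in yap1 and 26 in WT, a ratio of 1.94 (1.13 to 3.36), and Nts lay in 5 yap1 and 3 WT cells. The closest to Rarb were Ecm2 (0.977), Ackr1, a chemokine receptor of venules (0.976), and Nts (0.976). The closest to Dhrs3 was Rnf144b, a ubiquitin ligase (0.917), to Aldh1a1 Amy1, an amylase (0.998), to Rbp4 Hamp, the iron hormone hepcidin of hepatocytes (0.998), to Rara Stk40 (0.912), to Rarg Slk (0.928), to Rxra Psmc1 (0.927) and to Rdh10 Rras (0.814).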

How the data were processed

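Droplet single-cell RNA was measured in 1 yap1 and 1 WT library of liver nonparenchymal cells. The deposited files hold whole-number counts per gene and barcode, not normalized, per the file headers. Genome build mm10, Seurat and Bowtie 0.12.2 are named, without a role, per the submitters' processing notes. The counting program, annotation, use of strand and barcode selection are not given in the sources used here, and counts were treated as UMI counts.

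A barcode was kept at 500 or more UMIs, 200 or more genes and no more than 20% mitochondrial UMIs (12.3% of yap1 and 8.01% of WT barcodes removed). Classes were gated on 19 marker lists, in which 3 of 148 markers (Trac, Trbc2 and Ahsp) were not in the gene table. A barcode passing 1 gate took that class, called X-like in the text. Barcodes passing several gates were left out unless that combination had at least 50 cells in both libraries, and doublets were not otherwise treated. UMIs were summed per class and scaled to CPM with exact Poisson intervals. Shares carry exact Clopper-Pearson intervals and ratios of yap1 over WT exact conditional binomial intervals, all at 95%. A count of 0 was read as allowing 3 counts. Ratios needed 20 UMIs in both libraries together. Genes are named as members, as the defining genes of a pathway step or up to 3 per sub-list with 50 UMIs, and, for likeness, as the 3 highest Pearson correlations of log2(CPM + 10); Hic1, Nrip1 and Pnpla2 were named after their values were seen, as were the genes in the paragraphs on lymphatic cells and hemoglobin. Not every gene that this rule allows is named, and 1 such result is not reported here. The members and lists were chosen with earlier results of these data known. Of 27998 gene IDs, 27645 were found in the annotation of the reference. Promoters came from RefSeq (GRCm38.p6). The intervals were tested only on class sums simulated as Poisson counts, which is the model they assume. Such a test cannot show how they perform on counts clumped in a few cells. Tools were scipy 1.17.1, numpy 2.4.6 and pandas 2.3.3 in Python 3.11.15, with scanpy 1.11.5, leidenalg 0.10.2 and igraph 0.11.9 for the clusters.

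Alternatives changed the cell filter, the gate, the treatment of barcodes with several gates, the scaling, the weighting and depth of cells, or used Leiden clusters in place of gates. Leaving out the 5 highest Cyp26b1 cells, cells with hemoglobin and cells with larger vessel markers was added after seeing the data.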

Additional observations from a re-analysis of the deposited data

Results flagged for a closer look

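Cyp26b1 was also found outside the classes compared. Among the barcodes that the cell filters removed, 36 of 582 in yap1 (6.19%, 4.37 to 8.46) held a Cyp26b1 UMI, against 5 of 422 in WT (1.18%, 0.386 to 2.74). These barcodes enter no comparison above, and they held 86 Cyp26b1 UMIs in yap1 and 8 in WT. Among barcodes that carried endothelial markers together with those of another class, 22 of 67 in yap1 (32.8%, 21.8 to 45.4) and 16 of 91 in WT (17.6%, 10.4 to 27.0) held one. Both differences had the direction seen in the endothelial-like cells. They have no replicate and were not tested.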

How the results depend on the processing

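The Cyp26b1 ratio in endothelial-like cells lay between 4.95 and 6.55 over 12 alternatives, and moved by more than its interval only without the 5 highest cells of each library (6.55). The share of yap1 cells with a Cyp26b1 UMI was 61.8% under the stricter filter, 47.4% with no filter, 42.4% with cells thinned to 1000 UMIs and 47.0% without cells with larger vessel markers. The WT share was 23.9% under the stricter filter, 9.65% with thinned cells and 13.7% without cells with larger vessel markers. The count of genes beyond 1.5-fold was 1400, and 2155 with cells weighted equally. Member ratios whose interval left out 1 numbered 13, and 8 with a gate of 2 markers and 4 with thinned cells. The direction turned for Dhrs3 with thinned cells in monocyte-like (0.970), monocyte and patrolling monocyte (0.848) and neutrophil-like cells (0.985), and for Rbp4 in hepatocyte-like cells under the stricter filter (1.005) and with thinned cells (1.007). Of 536 other values over 47 ratios, 496 stayed within their interval, 35 moved and 5 turned, and the cause was not tested. Turned is counted only for ratios whose interval left out 1, and ratios whose interval included 1 also crossed 1 under some alternatives. The endothelial ratio lay between 1.59 and 1.83 for Dhrs3 and between 1.58 and 3.69 for Rarb over the same 12 alternatives. No paired analysis was possible because each genotype has 1 library. Genes with few UMIs, such as Rdh10 and Rarb outside the endothelium, are limited by depth. Libraries are not replicated, and the counts do not tell the 3 mice of a sample apart.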

Other observations

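Hic1 stood far apart in neutrophil-like cells, with 81 UMIs in 46 of 394 yap1 cells and 3 UMIs in 3 of 337 WT cells, a ratio of 21.7 (7.18 to 108). The 5 highest yap1 cells held 33.3% of these UMIs. In the same cells Tgm2 had 454 CPM in yap1 and 201 CPM in WT, a ratio of 2.26 (1.92 to 2.66), while 24.5% of 4996 genes were higher in yap1 beyond 1.5-fold. In monocyte-derived macrophage-like cells Fabp5 had 2401 CPM in yap1 and 1089 CPM in WT, a ratio of 2.20 (2.03 to 2.40), whereas Nrip1 had 51.6 CPM in yap1 and 128 CPM in WT, a ratio of 0.403 (0.281 to 0.573), and Cd38 had 105 CPM in yap1 and 204 CPM in WT, a ratio of 0.517 (0.398 to 0.669). Nrip1 was higher in yap1 patrolling monocyte-like cells, at 276 CPM against 175 CPM in WT, a ratio of 1.57 (1.26 to 1.97). These genes were singled out after their values were seen, and no difference between classes was tested.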
